A study of Mus musculus with 2 samples.

Results

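The cells described here are CD4 T cells from mouse glioma that were selected on transcripts of Tcf7, Lef1 and S1pr1, and they carry the working name of naive-like CD4 T cells. They were chosen by raw counts of unique molecular identifiers (UMIs), each of which stands for 1 captured RNA molecule. A cell needed at least 2 UMIs of Cd3d, Cd3e and Cd3g together, at least 1 UMI of Cd4, none of Cd8a, Cd8b1 or Foxp3, and at least 2 UMIs of Tcf7, Lef1 and S1pr1 together. It could hold at most 1 UMI of the helper activation genes Tnfsf8, Igfbp7, Penk, Tnfsf11 and Ccl1, and at most 2 of the cycling genes Mki67, Top2a, Birc5 and Ccna2. The rule found 174 cells among 15723 kept cells and 1925 CD4 T cells.

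Immune cells that had been sorted alive from gliomas as CD45.2+ CD45.1- were profiled by single-cell RNA sequencing with the BD Rhapsody system, a bead-based method run in microwells. The study holds 2 libraries, 1 from gliomas treated with PBS, a buffered salt solution, and 1 from tumours treated with EM and taken at 72 h according to its title. The sources used here do not give the meaning of EM, the time of the PBS library, the glioma model, the strain and age of the mice or the number of animals behind each library. With 1 library per group there is no replicate check, so no p-values are given, and all intervals cover counting error only.

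Naive CD4 T cells are cells that have not met their antigen and circulate between blood and lymphoid organs. Tcf7 and Lef1 encode transcription factors that keep T cells in a resting, self-renewing state, and S1pr1 encodes the receptor for sphingosine 1-phosphate that guides lymphocytes out of tissue. The chemokine receptor Ccr7 guides naive cells into lymph nodes, whereas tumours mostly hold antigen-experienced T cells, some of which also keep Tcf7.

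The PBS library gave 54 of the cells (207902 UMIs, 1141 to 6814 per cell, median 3867.5 UMIs and 1839 genes) and the EM library gave 120 (264814 UMIs, 874 to 6094 per cell, median 2020.5 UMIs and 1115.5 genes). Over all kept cells the libraries differed in depth in the same direction, with medians of 4303 and 2016 UMIs. The median mitochondrial share of the selected cells was 4.79% in PBS and 6.45% in EM. The 2 libraries shared 66 cell barcodes, and no selected cell of one library shared its barcode with a selected cell of the other. Xist, the RNA of the inactive X chromosome, had no UMI in the 54 PBS cells, which allows a share of up to 5.56% of cells with a UMI, and stood at 374 CPM (UMIs of a gene per 1000000 UMIs of the same cells) in EM with 44.2% of cells positive. The Y-linked gene Ddx3y was at 173 CPM in PBS and 3.78 in EM. The libraries therefore differed in sex-linked transcripts as well as in treatment and depth, and with these 2 libraries such differences cannot be told apart from treatment.

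The markers not used by the rule included those of alpha beta T cells, but Ccr7, Cd44, Icos and Ctla4 went against the word naive. The alpha beta T cell receptor constant gene Trac was found in 88.9% of the PBS cells and 85.8% of the EM cells, Trbc2 in 96.3% and 94.2%, and the costimulatory receptor gene Cd28 in 74.1% and 55.8%. Ccr7 was found in only 4 of 54 PBS cells (7.41%, exact Clopper-Pearson 95% interval 2.06 to 17.9) and 5 of 120 EM cells (4.17%, 1.37 to 9.46). Cd44, an adhesion receptor that marks antigen experience, was found in 59.3% and 56.7% of the cells. Icos, a costimulatory receptor that T cells gain after activation, was found in 88.9% of PBS and 64.2% of EM cells, and Ctla4, an inhibitory receptor gained likewise, in 77.8% and 38.3%. All these shares count raw UMIs and the PBS cells were deeper, so they are not read as differences between the libraries. Among other naive T cell markers Klf2 and Satb1 went the other way. They were higher in these cells than in the other CD4 groups of each library, as given below. For Il7r no values of those groups are given, and its share and level differed in direction within the selected cells. Il7r was found in 66.7% of PBS and 47.9% of EM cells with Lef1 UMIs, and in 83.3% and 55.6% of those without. Its level was 1270 CPM in PBS and 1028 in EM with Lef1 UMIs, and 1146 and 732 without. Because the markers were mixed, the cells are named below by the genes that chose them.

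Free RNA can place a UMI in a cell that does not express the gene. In the activated helper CD4 T cells, which had at least 2 UMIs of the helper genes, Ccr7 was found in 23 of 209 PBS cells (median 3874 UMIs) and 10 of 315 EM cells (3.17%, median 2345 UMIs). The Ccr7 shares of the selected cells thus did not stand above those of activated cells beyond counting error. After each cell was thinned to 1000 UMIs, Ccr7 remained in 3 of 54 PBS cells and 2 of 119 EM cells.

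The levels of Klf2, Foxp1 and Satb1 were compared with those in other CD4 T cells, as the plot of marker levels in 5 groups of T cells shows. Klf2, a transcription factor that drives S1pr1, one of the genes that chose the cells, was at 236 CPM in the selected PBS cells and 582 in the selected EM cells. In PBS it was at 28.7 in Foxp3+ CD4 cells, 19.2 in activated helper cells and 66.6 in the other CD4 cells without 2 UMIs of the 3 rule genes. In EM those 3 groups held 153, 89.9 and 221. Klf2 was thus highest in the selected cells among the 4 CD4 groups of each library, and the CD8 T cells chosen by the same 3 genes reached 149 and 564. Foxp1, a factor linked to T cell quiescence, stood at 423 and 317 in the selected cells against at most 204 and 220 in the other CD4 groups. Satb1, a chromatin organiser of T cells, was at 553 and 321 against at most 395 and 277.

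**Figure D1:**
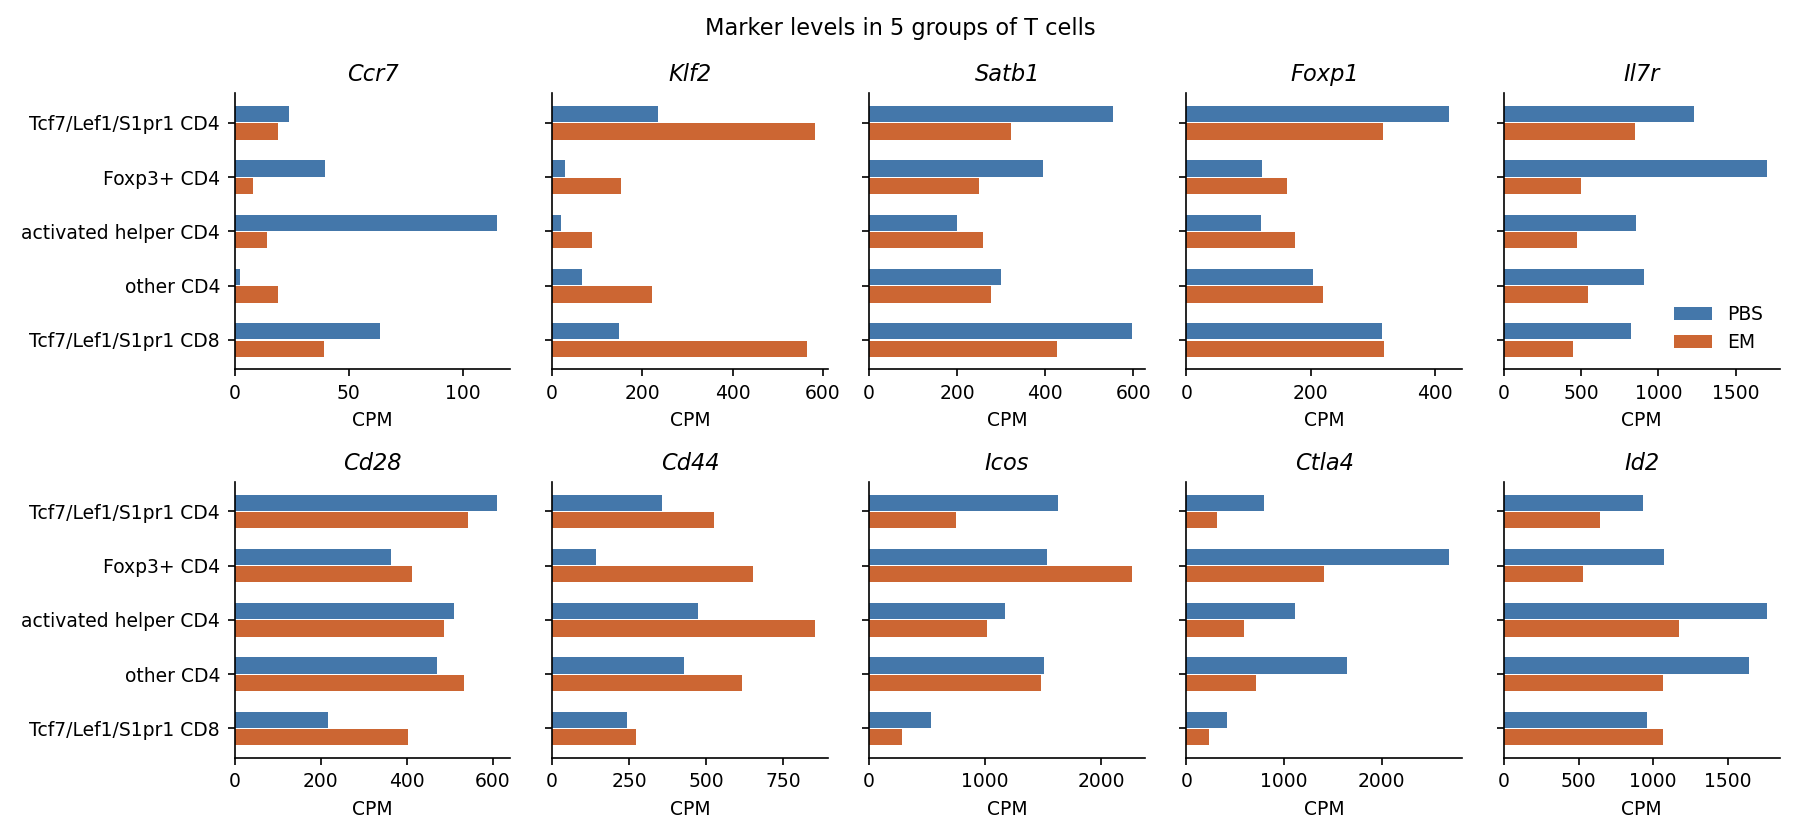
Level of 10 marker genes in 5 groups of T cells, in CPM from the UMIs summed over the cells of a group, with blue bars for PBS and orange bars for EM. The genes that defined the groups are not drawn. Klf2 and Foxp1 are highest among the CD4 groups in the Tcf7/Lef1/S1pr1 cells of each library, while Icos is well above 0 in every CD4 group.

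The selected cells were not uniform. All of Tcf7, Lef1 and S1pr1 were detected together in 27.8% of PBS and 16.7% of EM cells, Tcf7 alone in 5.56% and 22.5%, and S1pr1 alone in 9.26% and 10%. The sum of the 3 genes was exactly 2, the lowest sum that passed, in 18 PBS and 57 EM cells, and 4 or more in 29 and 36. Just outside the rule were 32 PBS and 101 EM cells with a sum of 1. These values chose the cells and are given as a description.

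Among genes the rule did not use, Il7r, the receptor chain for the survival cytokine interleukin 7, was in the EM cells at 398 CPM at a sum of 2, 1305 at 3 and 1154 at 4 or more, and at 533 in the cells just outside. In PBS it was 1136, 1397 and 1255, with 630.5 just outside. Klf2 was at 440, 636 and 735 in the same EM cells and at 215, 349 and 228 in PBS. Neither gene thus followed the sum step by step in each library, and only 7 PBS cells had a sum of 3. Actn1, an actin crosslinker abundant in naive T cells, was at 67.7, 137 and 249 in EM and at 0, 0 and 130 in PBS. Igfbp4, a naive CD4 T cell transcript, was seen in a single EM cell, which held all of its EM UMIs.

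The selected cells made up a larger share of all kept cells in EM, but not of CD4 T cells. They were 0.696% of 7756 kept PBS cells (0.523 to 0.907) and 1.51% of 7967 kept EM cells (1.25 to 1.798), a ratio of 2.16 (1.56 to 3.04). Of CD4 T cells they were 10.02% of 539 in PBS (7.62 to 12.9) and 8.66% of 1386 in EM (7.23 to 10.3), a ratio of 0.864 (0.622 to 1.21), which did not differ beyond counting error. Among the other CD4 groups the share of Foxp3+ cells was 12.1% in PBS and 27.8% in EM, and that of activated helper cells 38.8% and 22.7%. The rule counts raw UMIs, so a deeper cell passes it at a lower level in CPM. With every cell thinned to 1000 UMIs before the rule was applied, which left out 702 PBS and 814 EM cells, 10 of 7054 PBS cells (0.142%) and 40 of 7153 EM cells (0.559%) passed, a ratio of 3.94 (1.94 to 8.85). Of CD4 T cells these were 4.67% and 5.43%, a ratio of 1.16 (0.571 to 2.60). Over 20 repeated thinnings a mean of 5.75 PBS and 38.95 EM cells passed. The ratio of the shares of kept cells ran from 3.73 to 14.5, so the draw above lay near the low end. That of the shares of CD4 T cells ran from 1.07 to 4.35. The larger share of kept cells in EM thus held at equal depth, whereas the share of CD4 T cells changed its direction with depth and rested on few PBS cells. The sort gated on viability and CD45 alleles only, so all shares are of sorted immune cells.

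**Figure D2:**
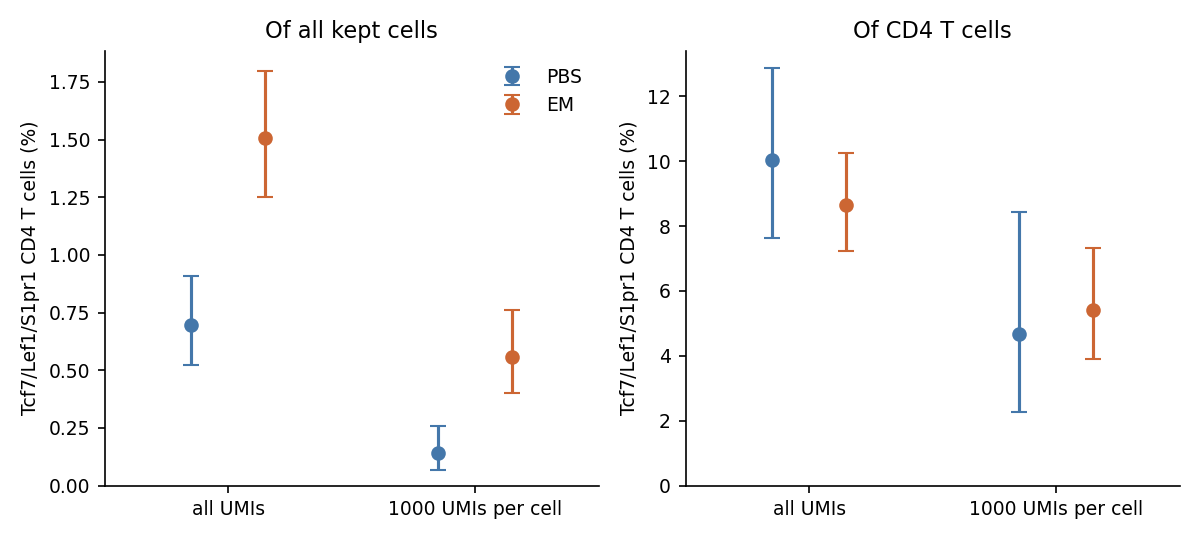
Tcf7/Lef1/S1pr1 CD4 T cells as a percentage of all kept cells (left) and of CD4 T cells (right), in PBS (blue) and EM (orange), with all UMIs and after a single draw of thinning to 1000 UMIs per cell. Points are shares and bars exact 95% intervals. The EM share of kept cells is higher at either depth, and the intervals for the share of CD4 T cells overlap.

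Gene levels were compared between the 120 EM and 54 PBS cells after their UMIs were summed per library. A gene was measured if it had at least 20 UMIs in the 2 libraries together, which 4196 genes did. Their median log2 ratio of EM over PBS was -0.07. Of all measured genes 6.7% were at least 2-fold higher in EM and 8.94% at least 2-fold lower, and each list below is read against these shares. Genes of the rule were left out of the lists.

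Genes induced by type I interferon were higher in EM across nearly the whole list. These genes encode antiviral proteins that are switched on when interferon alpha or beta binds its receptor. Of 66 list genes in the files 57 were measured, and 55 were higher in EM and 2 lower, with 34 at least 2-fold higher and 1 at least 2-fold lower. Their median log2 ratio was 1.21 and their summed level 12641 CPM in PBS and 23617 in EM. The list medians were 1.46 in Foxp3+ cells, 1.12 in activated helper cells, 1.94 in other CD4 cells and 1.33 in the CD8 cells of the same rule, so a higher level in EM was not particular to the selected cells. In single cells thinned to 1000 UMIs the list total had a median of 11 in PBS (2 to 25) and 21 in EM (3 to 68). The ranges overlapped, and the highest PBS cell lay below the upper quartile of the EM cells at 29.5.

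Bst2, which encodes tetherin, a protein that holds budding viruses on the cell surface, had 1 UMI in PBS and 36 in EM (4.81 and 136 CPM, log2 ratio 4.82, 95% interval 2.25 to 10.16). It was found in 1.85% of PBS and 20% of EM cells, so no single cell carried the difference. Ube2l6, the enzyme that passes the ubiquitin-like protein Isg15 to its targets, went from 1 UMI to 53 (log2 ratio 5.38, 2.84 to 10.71) and was found in 27.5% of the EM cells. It was not on the interferon list and was named for its large ratio. Isg15 itself was at 38.5 and 143 CPM (log2 ratio 1.90, 0.78 to 3.21). Usp18, which removes Isg15 from proteins, was at 19.2 and 102 (2.41, 0.88 to 4.38). Isg15, Ube2l6 and Usp18 were therefore each higher in EM by more than counting error.

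Irf7, a transcription factor that amplifies interferon responses, was at 28.9 CPM in PBS and 170 in EM (log2 ratio 2.56, 1.32 to 4.08). Oasl2, of the oligoadenylate synthetase family that senses double-stranded RNA, was at 52.9 and 321 (2.60, 1.69 to 3.66). Cmpk2, a mitochondrial nucleotide kinase, was at 19.2 and 102 (2.41, 0.88 to 4.38). Slfn5, of the Schlafen family, was at 111 and 578 (2.38, 1.75 to 3.09) and was found in 24.1% and 40.8% of cells. Ifi27l2a was the most abundant list gene of large ratio, at 390 and 1771 (2.18, 1.84 to 2.54). The surface antigen gene Ly6a was already at 1342 in PBS and at 1537 in EM, with an interval that included 0 (0.20, -0.03 to 0.42). The size of the difference thus varied widely within the list.

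Ifitm1 and Ifitm2, which encode membrane proteins that block virus entry, went the other way. Ifitm1 was at 568 CPM in PBS and 185 in EM (log2 ratio -1.62, -2.13 to -1.12), and Ifitm2 at 212 and 125 (-0.76, -1.46 to -0.08). In Foxp3+ cells Ifitm1 had a log2 ratio of 4.98 (2.47 to 10.29) and Ifitm2 of 2.06 (1.14 to 3.15). The wide interval leaves the size of the Ifitm1 ratio there uncertain. Ifitm1 was found in only 20.4% of the selected PBS cells and 5% of the EM cells, and 28 of its 49 EM UMIs came from 1 cell.

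Of the 57 measured interferon genes 47 had a promoter in the RefSeq table for GRCm38.p6, the assembly behind mm10. The 250 bases before each start site were searched for the core of the interferon-stimulated response element, a sequence found before many interferon-induced genes. It was written as GAAANNGAAA and searched on both strands. It was found before 21 of the 47 genes (44.7%), against 978 of all 32851 promoters in the table (2.98%) and 4.23% of the measured genes. Among the genes at least 2-fold higher in EM 16 of 28 held it, and among the other list genes 5 of 19. A match is a description of sequence and shows no binding. The 4 windows below belong to the named interferon genes with the largest ratios that held a match, and are shown because they place the motif beside genes that moved together. They are written 5′ to 3′ along the transcript, with the match in capitals, which reads as its reverse complement for Ifit1bl1.
Bst2: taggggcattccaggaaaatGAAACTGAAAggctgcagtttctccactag
Ifit1bl1: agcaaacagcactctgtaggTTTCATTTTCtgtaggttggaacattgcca
Slfn5: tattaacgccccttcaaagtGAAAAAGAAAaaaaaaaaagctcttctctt
Isg15: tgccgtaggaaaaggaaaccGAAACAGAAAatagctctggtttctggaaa

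The Bst2 window lies at chr8:71537567-71537616 on the minus strand, upstream of the gene (chr8:71534255-71537456), with the match in capitals starting 124 bases before the start site and 2 matches in its 250 bases, which overlap. The Ifit1bl1 window lies at chr19:34602043-34602092 on the minus strand, upstream of the gene (chr19:34592891-34601956), with the match 104 bases before the start site. Ifit1bl1, an Ifit family member whose relatives bind viral RNA, had 2 UMIs in PBS and 41 in EM (log2 ratio 4.01, 2.06 to 7.10). The Slfn5 window lies at chr11:82951927-82951976 on the plus strand, with the match 155 bases before the RefSeq start site and inside the gene as GENCODE draws it (chr11:82951349-82964840). The Isg15 window lies at chr4:156200855-156200904 on the minus strand, upstream of the gene (chr4:156199424-156200818), with the match in capitals starting 66 bases before the start site. Its 250 bases held 3 matches, which overlap.

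**Figure D3:**
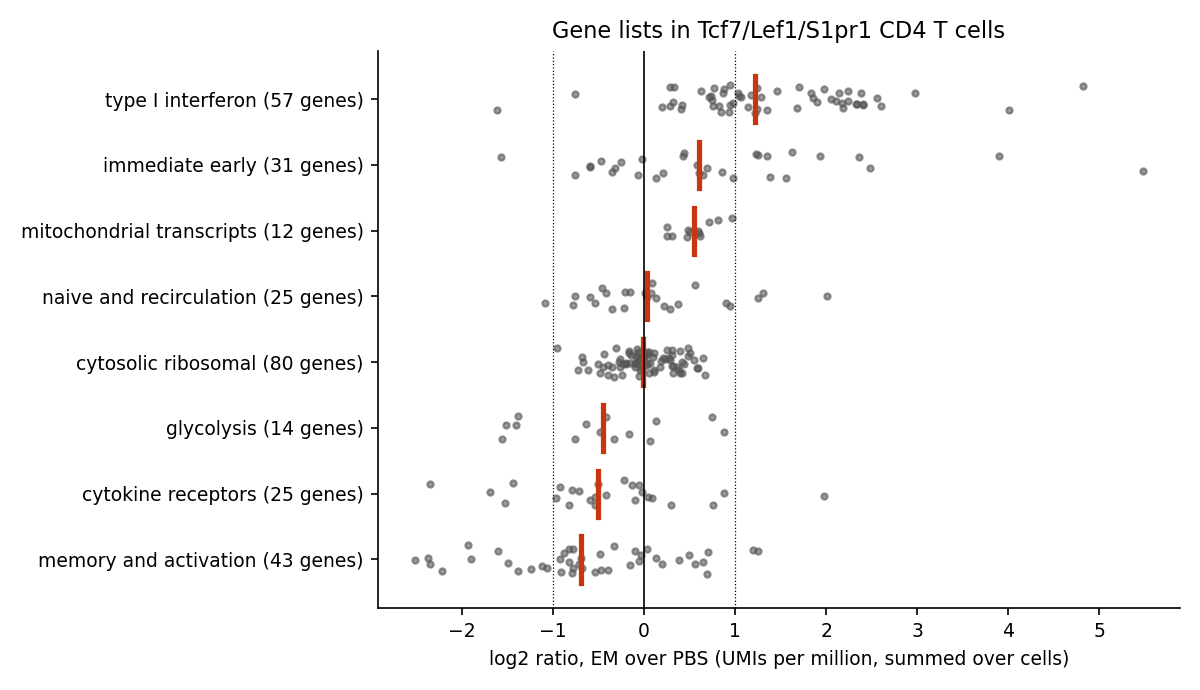
Log2 ratio of EM over PBS for each measured gene of 8 lists in the Tcf7/Lef1/S1pr1 CD4 T cells (x axis), 1 grey point per gene, with the list median as a red bar and dotted lines at 2-fold. The interferon points lie almost all to the right of 0 with a median of 1.21, the ribosomal points are centred on 0, and most memory and activation points lie to the left with a median of -0.69.

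Genes answering to interferon gamma differed less. Of 21 measured genes 1 was at least 2-fold higher and none 2-fold lower, with a median log2 ratio of 0.14. That gene was Gbp2, a guanylate-binding protein of cell-autonomous defence, at 115 and 374 CPM (1.70, 1.04 to 2.40). Among 20 measured genes of MHC class I and its loading machinery 3 were at least 2-fold higher and 1 lower (median 0.34). The non-classical class I gene H2-T22 was at 120 and 363 (1.59, 0.94 to 2.29), and Tapbp, which encodes the peptide-loading chaperone tapasin, was at 245 and 574 (1.23, 0.76 to 1.71). H2-M3, which presents formylated peptides, was at 86.6 and 34.0 (-1.35, -2.69 to -0.12).

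Immediate early genes, which are transcribed within minutes of a stimulus, were also higher in EM. Of 31 measured genes 11 were at least 2-fold higher and 1 at least 2-fold lower, with a median log2 ratio of 0.60 and a summed level of 11760 and 18893 CPM. The medians elsewhere were -0.08 in Foxp3+ cells, 0.34 in activated helper cells, 0.47 in other CD4 cells and 0.66 in the CD8 cells of the same rule. Thinned to 1000 UMIs, a cell held a median of 9 such UMIs in PBS (2 to 29) and 19 in EM (2 to 68). The AP-1 genes Jun (159 and 608, log2 ratio 1.94), Fosb (447 and 1318, 1.56), Jund (678 and 2096, 1.63) and Fos (404 and 948, 1.23) were higher, as was Cd69 (317 and 755, 1.25, 0.84 to 1.67), an activation marker that opposes exit from tissue by binding the S1pr1 protein. Not all members moved this way: Dusp5 was at 875 and 582 (-0.59) and Fosl2 at 212 and 125 (-0.76).

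A few cells carried much of some of these differences. Zfp36, which encodes an RNA-destabilising protein that limits cytokine transcripts, was at 269 and 1503 CPM (log2 ratio 2.48, 2.07 to 2.91), and 74 of its 398 EM UMIs came from 1 cell, without which the ratio was 2.21. Egr1, a transcription factor downstream of receptor signals, was at 125 and 642 (2.36, 1.76 to 3.02), and was 2.05 without its highest cell. Ier3 had 1 UMI in PBS and 57 in EM, of which 31 came from 1 cell, and only 3.33% of EM cells held any. Ccl6, a chemokine of myeloid cells, had 4 and 80 UMIs, 39 of them in 1 of the 2.5% of EM cells that held it.

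The memory and activation list was lower in EM, while its medians in the other T cell groups lay between 0.02 and 0.28. Of 43 measured genes 32 were lower and 11 higher, with 12 at least 2-fold lower and 2 at least 2-fold higher. The median log2 ratio was -0.69 and the summed level 23348 and 16525 CPM. The medians were 0.28 in Foxp3+ cells, 0.07 in activated helper cells, 0.08 in other CD4 cells and 0.02 in the CD8 cells of the same rule. The difference between the groups was not tested. Thinned to 1000 UMIs, a cell held a median of 23.5 such UMIs in PBS (4 to 50) and 16 in EM (1 to 41), so most of the 2 ranges overlapped. The direction was not the same under every setting. When the rule was applied after a single thinning draw to 1000 UMIs, 10 PBS and 40 EM cells and 15 genes were kept, and the median was 0.32. That draw held 10000 PBS and 40000 EM UMIs, and over 20 such draws a mean of 5.75 PBS cells passed. Whether the change came from the cells chosen or from the genes left was not tested. The list stayed lower in EM under the other settings.

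**Figure D4:**
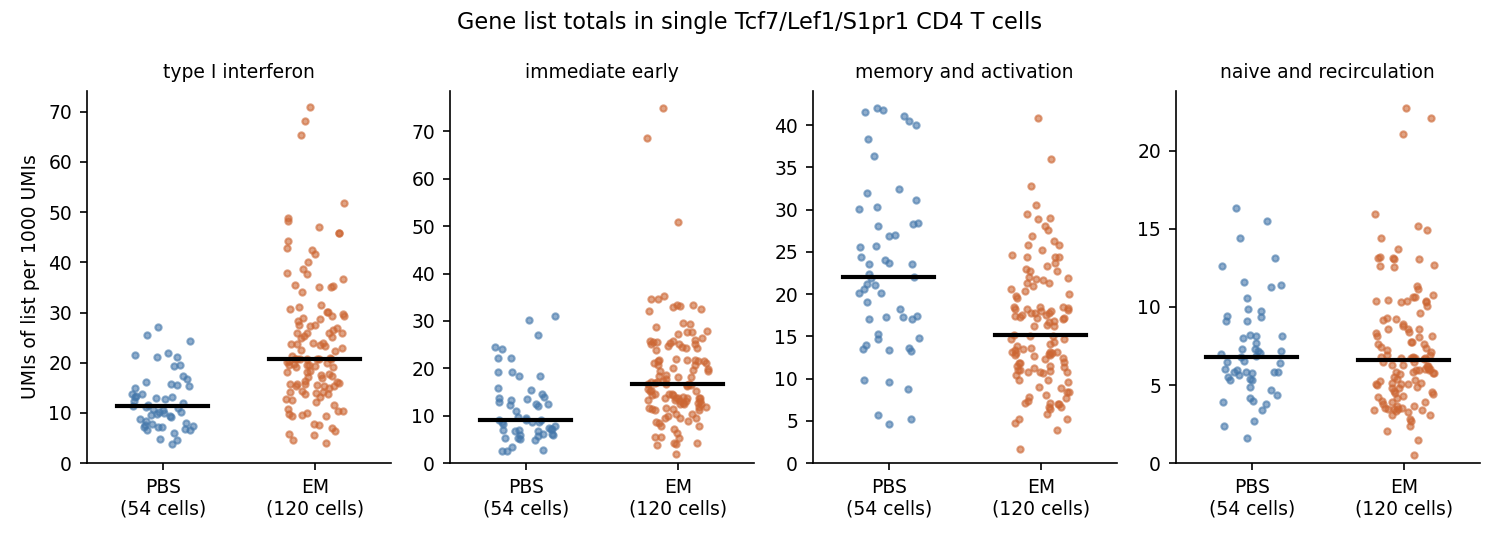
UMIs of 4 gene lists per 1000 UMIs of the same cell (y axis), 1 point per Tcf7/Lef1/S1pr1 CD4 T cell, in PBS (blue, 54 cells) and EM (orange, 120 cells), with the median as a black bar. Interferon and immediate early totals are higher in EM, memory and activation totals are lower, and naive and recirculation totals have medians close together, with wide overlap of the cells in all 4 panels.

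Icos was at 1631 CPM in PBS and 748 in EM (log2 ratio -1.12, -1.39 to -0.87), against a ratio of 0.56 in Foxp3+ cells. Ctla4 was at 789 and 313 (-1.33, -1.73 to -0.94). Lgals3, which encodes galectin-3, was at 721 and 140 (-2.37, -2.93 to -1.84), with UMIs in 55.6% of PBS and 12.5% of EM cells. Ccr2, the receptor for monocyte-attracting chemokines that effector T cells also carry, was at 481 and 128 (-1.91, -2.51 to -1.33). The chemokine gene Ccl5 was at 2039 and 672 (-1.60, -1.86 to -1.35). These surface and effector genes were each lower in EM by more than counting error and were spread over many PBS cells.

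Receptors and regulators followed in the same direction. Il2ra, the interleukin 2 receptor alpha chain, was at 96.2 and 18.9 CPM (-2.35, -4.12 to -0.89), and Batf, an AP-1 factor of effector differentiation, at 106 and 22.7 (-2.22, -3.82 to -0.88). Itga1, the collagen-binding integrin chain of tissue-resident T cells, was at 130 and 22.7 (-2.52, -4.09 to -1.21). Rora, a nuclear receptor of helper cells, was at 563 and 268 (-1.07, -1.52 to -0.63), and Ifngr1, the interferon gamma receptor chain, at 1150 and 604 (-0.93, -1.23 to -0.63). Cd69 (above), S100a11 (356 and 816, 1.20, 0.81 to 1.60) and Cd44 (356 and 525, 0.56, 0.14 to 0.99) were the list genes whose intervals lay above 0.

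The naive and recirculation list showed no shift as a whole. Of 36 genes 25 were measured, 14 higher and 11 lower, with a median log2 ratio of 0.03, 3 at least 2-fold higher and 1 at least 2-fold lower. Among those higher were Klf2 (236 and 582 CPM, 1.30, 0.83 to 1.798) and Tspan13 (111 and 264, 1.26, 0.56 to 2.00). Klf2 was also higher in EM in the other 4 groups, by 1.73 to 2.41 on the log2 scale. Satb1 (-0.79, -1.21 to -0.37) and Il7r (1231 and 850, -0.54, -0.80 to -0.27) were lower. With each selected cell thinned to 1000 UMIs, in 1 draw that left 54000 PBS UMIs, the ratio of Satb1 was -0.04 and that of Il7r -0.18. Both thinned values lay outside the intervals above, but no interval is given for them. The part of depth in these differences was not tested. Of 18 measured quiescence genes 1 was at least 2-fold higher and 1 lower (median -0.02), and the lower gene was Btg2, an antiproliferative regulator of RNA decay, at 736 and 336 (-1.13, -1.52 to -0.74).

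Among lists of T cell function the medians were below 0 in all selected cells, but several changed under other settings. For cytotoxic genes, 2 of 11 measured were at least 2-fold higher and 5 at least 2-fold lower (median -0.42). That median was -1.37 with the selected cells thinned to 1000 UMIs, -1.36 in those of 1500 to 4000 UMIs, -1.58 on 1 gene with the rule at 1000 UMIs and -1.45 without cells of 3 or more other-cell UMIs. Neither higher gene stayed 2-fold higher with equal weight per cell or without cells of 20 or more other-cell UMIs. Gzmb, which encodes the cell-killing protease granzyme B, was at 914 and 159 CPM (-2.53, -3.04 to -2.04), and 84 of its 190 PBS UMIs came from 1 cell, without which the ratio was -1.73. Serpinb9, which encodes an inhibitor of granzyme B, was at 390 and 45.3 (-3.10, -4.11 to -2.22), found in 51.9% of PBS and 10% of EM cells. For inhibitory receptors 3 of 8 were at least 2-fold lower and none higher (median -0.60), for cytokine receptors 4 of 25 lower and 1 higher (-0.50), and for T cell transcription factors 5 of 27 lower and 1 higher (-0.35). T cell receptor signalling genes had 5 of 38 lower and 1 higher (-0.16). The lowest of them was Ubash3a, a phosphatase-family inhibitor of receptor signalling, at 236 and 49.1 (-2.26, -3.27 to -1.36). The 8 Gimap GTPase genes of lymphocyte survival were all within 2-fold (median -0.39). With the rule at 1000 UMIs, which left 10 PBS and 40 EM cells, the medians were above 0 for receptor signalling (0.30, 10 genes), cytokine receptors (0.16, 6 genes), transcription factors (0.27, 8 genes) and Gimap genes (0.49, 2 genes). With the selected cells thinned to 1000 UMIs the median of inhibitory receptors was 0.07 on 5 genes, of which 2 were still at least 2-fold lower and none higher. Thinned in the same way, the medians stayed below 0 for receptor signalling (-0.14, 28 genes) and cytokine receptors (-0.17, 14 genes). They also did for transcription factors (-0.18, 22 genes) and Gimap genes (-0.28, 7 genes). The rule at 1000 UMIs also changed the cells and the genes left, and the part of depth in its medians was not tested.

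Gata3, the type 2 helper factor, was at 173 and 166 CPM (-0.06, -0.73 to 0.62), and Tbx21, the type 1 factor, at 48.1 and 60.4 (0.33, -0.90 to 1.63). The chemokine receptor Cxcr3 was at 135 and 121 (-0.16, -0.93 to 0.63). Helper 1 genes had 1 of 14 at least 2-fold higher and 2 lower, with 2 intervals above 0 and 5 below, and summed to 5161 and 3365 CPM (-0.62, -0.75 to -0.49). The 5 below were Ccl5, Il12rb2, Il18rap, Il18r1 and Stat4, a transducer of interleukin 12 signals (390 and 230.4 CPM, -0.76, -1.26 to -0.26). The share of such intervals over all measured genes is not given, so the 2 counts of intervals have no background to be read against. Follicular helper genes had none of 7 in either direction, and regulatory T cell genes other than Foxp3 had 1 of 13 higher and 4 lower. Il10, the anti-inflammatory cytokine, had 18 UMIs in PBS and 2 in EM, with 12 of the 18 in 1 cell.

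Metabolic and housekeeping lists moved little or in part. Ribosomal protein genes had none of 80 beyond 2-fold and a median of -0.01, and a cell thinned to 1000 UMIs held a median of 124.5 ribosomal UMIs in PBS and 124 in EM. Glycolysis genes had 4 of 14 at least 2-fold lower and none higher (median -0.45), among them Gpi1 (346 and 117 CPM, -1.56, -2.22 to -0.94) and Pfkp (303 and 106, -1.52, -2.22 to -0.86), which encode early enzymes of the pathway. Respiratory chain genes had none of 63 at least 2-fold higher and 1 lower (0.09). The mitochondrial genome's own transcripts were all higher, 12 of 12 by less than 2-fold (median 0.55), with mt-Nd2 at 2525 and 4928 (0.96, 0.82 to 1.11). The part of this difference in the others was not tested. Heat shock genes were within 2-fold (median 0.41), led by Hspa5, the endoplasmic reticulum chaperone, at 635 and 1246 (0.97, 0.68 to 1.28). Among survival genes 3 of 18 were at least 2-fold lower and 1 higher (median -0.51), with Bax, which promotes apoptosis, at 43.3 and 136 (1.65, 0.57 to 2.89) and Ddit4, a stress-induced inhibitor of growth signalling, at 111 and 15.1 (-2.87, -4.86 to -1.32).

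The largest differences downward outside these lists included genes that were lower in EM in every group of T cells. Tex14, named for its role in germ cell bridges, was at 4844 CPM in PBS and 502 in EM (-3.27, -3.54 to -3.01), with log2 ratios of -2.83 in Foxp3+ cells, -1.83 in activated helper cells, -2.80 in other CD4 cells and -3.02 in the CD8 cells. Over all kept cells it was at 1057 and 384. Fkbp5, a cochaperone induced by glucocorticoids, was at 284 and 34.0 (-3.06, -4.26 to -2.04) with log2 ratios from -2.73 to -2.11 in the other groups. Cpeb1, an RNA-binding translation regulator, was at 486 and 121 (-2.01, -2.63 to -1.42). Cbx7, a Polycomb protein, was at 154 and 37.8 (-2.03, -3.22 to -0.97), and Nrip1, a nuclear receptor corepressor, at 279 and 56.6 (-2.30, -3.23 to -1.46). Cd86, a ligand of Cd28 and Ctla4 found mainly on antigen-presenting cells, was at 120 and 22.7 (-2.41, -3.98 to -1.09), with 13 of its 25 PBS UMIs in 1 cell.

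Transcripts of other cell types were present in some of the selected cells. The 18 macrophage markers summed to 770 CPM in PBS, with 15 detected, and to 2134 in EM, with 17 detected, against 17445 and 6241 in all kept cells. Ms4a7, Adgre1 and Spp1 were at 0 in the PBS cells and Mrc1 in the EM cells. In EM 164 of the 565 macrophage UMIs came from 1 cell, which left 1537 when removed, and 112 of the 120 Lyz2 UMIs from 1 cell. The 12 dendritic cell markers summed to 467 and 1261, and to 452 in EM without the highest cell, with Xcr1 and Cd209a at 0 in each library. The 12 B cell markers summed to 760 and 393, with Iglc2 and Fcmr at 0 in each, and 121 of the 132 Igkc UMIs in PBS came from 1 cell. Natural killer markers summed to 96.2 and 132, with Ncr1 at 0 in each. Doublets, which are wells that captured a pair of cells, were not removed because the doublet caller Scrublet marked 0 PBS cells and 3 EM cells, too few for the call to be used.

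With the 1 PBS and 7 EM cells that held 20 or more macrophage, B or natural killer UMIs left out, the interferon median was 1.23, the immediate early median 0.63 and the memory and activation median -0.72. With all 28 PBS and 47 EM cells that held 3 or more left out, these medians were 1.17, 0.55 and -0.50. The interferon and immediate early medians thus changed little without those cells, while that of memory and activation was closer to 0 without the larger set. Single genes behaved otherwise. The class II genes H2-Ab1 and Cd74 were higher in EM in all cells (2.31 and 1.61) and lower without the cells that held 20 or more (-1.43 and -1.28), and Lyz2 went from 4.24 to -1.23.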

How the data were processed

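The values deposited by the authors are UMI counts, whole numbers for each gene in each barcode, and show no scaling. The submitters' processing notes name the mm10 build and the tools CASAVA 1.8 and STARsolo. How barcodes were called as cells is not stated there, and the smallest barcode held 500 UMIs. Kept cells had at least 500 UMIs, at least 200 genes and at most 20% mitochondrial UMIs, a limit that 573 PBS and 64 EM barcodes exceeded. The mitochondrial, other-cell and doublet values of the selected cells are given beside the results.

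UMIs were summed per library over the selected cells and divided by their total, and log2 ratios of EM over PBS were taken without a pseudocount. Intervals of ratios are exact 95% conditional binomial intervals and those of shares exact Clopper-Pearson intervals, checked on simulated data. The simulated counts held no variation between cells. PCR and capture noise and variation between cells are not covered. A count of 0 was read as at most 3 counts. Gene identifiers matched the GENCODE annotation of GRCm38 for 31184 of 31253 genes. Doublet scores came from Scrublet in scanpy 1.11.5, and other steps used Python 3.11.15, numpy 2.4.6 and scipy 1.17.1. Each group had 1 library, so no model across genes was fitted.

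Named genes were the 12 highest and 12 lowest ratios among genes that reached 50 CPM in 1 of the libraries, held 30 or more UMIs in all and had an interval without 1, the 2 highest and 2 lowest of each list, and markers given whatever their value. Outside this rule, Jun, Fosb, Jund, Fos, Dusp5, Ifi27l2a, Tspan13, Stat4, Il18r1, Il18rap, Actn1, Igfbp4, Trbc2, Xist and Ddx3y were picked after their values were seen. The selection rule, the cell groups and the gene lists were chosen with earlier results of these data known. Results that need certain genes, 1 other choice of cells among them, are not reported here.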

Additional observations from a re-analysis of the deposited data

Results flagged for a closer look

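For the 8 genes named here the ratio of EM over PBS had opposite directions in the Tcf7/Lef1/S1pr1 CD4 T cells and in Foxp3+ CD4 T cells, with intervals on opposite sides of 0. All 8 belong to the gene lists. No share over all measured genes is given beside them, so they are examples and their number is not a result. The difference between the 2 groups was not tested, each value rests on 1 library per group, and the intervals cover counting error only. Egr1 had a log2 ratio of 2.36 in the selected cells and -0.45 in Foxp3+ cells, and Tmem176b, a membrane protein gene of myeloid and type 17 cells, 2.19 and -1.72. The other 6 were lower in EM in the selected cells and higher in Foxp3+ cells. Icos was at -1.12 and 0.56, Il2ra at -2.35 and 0.56, and the costimulatory receptor gene Tnfrsf9 at -1.93 and 0.30. Ifitm1 was at -1.62 and 4.98 (in Foxp3+ cells 2.47 to 10.29), and Ifitm2 at -0.76 and 2.06 (1.14 to 3.15). Gzmb was at -2.53 and 0.19, and in the selected cells it was -1.73 without the cell with the largest number of its UMIs. The Foxp3+ group held 65 PBS and 385 EM cells.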

How the results depend on the processing

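No paired analysis was possible because there was 1 library per group. The share of kept cells, with a ratio of EM over PBS of 2.16, stayed above 1 under every alternative. It was 3.94 with the rule at 1000 UMIs per cell, 6.68 as the ratio of mean shares over 20 such draws, 3.09 at 2000 UMIs and 1.55 in cells of 1500 to 4000 UMIs. The share of CD4 T cells, with a ratio of 0.864, was 1.26 at 2000 UMIs and 1.88 over the 20 draws at 1000. The interferon median of 1.21 lay between 0.83 (sum of the 3 rule genes at least 3) and 1.49 (selected cells thinned to 1000 UMIs), and the naive and recirculation median of 0.03 between -0.09 and 0.55. The memory and activation median of -0.69 became 0.32 with the rule at 1000 UMIs, and was between -0.74 and -0.47 otherwise. With the rule at 1000 UMIs the ribosomal median was -0.30. Other scalings moved all ratios by 0.07 and 0.04. Of 729 values for 150 named genes, 644 stayed inside their interval, 63 moved out and 22 changed direction, and the cause was not tested. Without cells of 3 or more other-cell UMIs the log2 ratios that changed direction were -3.00 for Ccl3, 1.32 for Il1r2, -1.09 for H2-Eb1, -2.68 for H2-Aa, -0.091 for Cd74, -1.68 for H2-Ab1 and 0.32 for Igkc. Without those of 20 or more they were -0.23 for Ccl3, -0.52 for Ccl4, -1.23 for Lyz2, -1.82 for H2-Eb1, -1.999 for H2-Aa, -1.28 for Cd74 and -1.43 for H2-Ab1. Without the highest cell they were -0.21 for Ccl3, -0.18 for Ccl4, -0.82 for H2-Eb1 and 1.85 for Igkc. With the selected cells thinned to 1000 UMIs they were -0.14 for Ccl4, 0.45 for Irf4 and -0.55 for H2-Eb1, and with equal weight per cell -0.13 for H2-Eb1. The alternatives with 2000 UMIs, 20 draws, 20 other-cell UMIs and single genes were chosen after seeing the data. With 54 PBS cells, genes under about 20 UMIs in all were not compared.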

Other observations

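Markers of gamma delta T cells, immature thymocytes, basophils and mast cells left few molecules in the selected cells. Gamma delta T cell markers gave 2 UMIs in the 54 PBS cells and 8 in the 120 EM cells, and Trdc, the delta chain constant gene, had 3 UMIs in EM, all in 1 cell. The recombination genes Rag1 and Rag2 and the other immature thymocyte markers Dntt and Ptcra were at 0 in each library. Basophil and mast cell markers had 0 UMIs in PBS and 17 in EM, 15 of them in 1 cell. Of 21 cell cycle genes in the files, other than those of the rule, 5 were measured, with a median log2 ratio of 0.94, which was -1.26 on 1 gene with the rule at 1000 UMIs per cell, and the tubulin gene Tuba1b was at 43.3 and 170 CPM (1.97, 0.92 to 3.19). T cell receptor beta variable segments were found in 3 PBS and 6 EM cells, too few to describe their repertoire. Of 26 measured translation factor genes 1 was at least 2-fold higher in EM and none lower (median -0.09). Of 23 measured homing and adhesion genes 1 was at least 2-fold higher and 4 lower (median -0.22).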
